A study of Mus musculus with 18 samples.

Results

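The comparison described here asked how far the transcriptional response of the liver to estradiol (E2) depended on the model of obesity. For each gene, the change between E2 and vehicle in mice with diet-induced obesity (DIO) was set against the same change in ob/ob mice, and the difference of the 2 effects, DIO minus ob/ob, was tested. It uses 12 of the 18 liver RNA-seq libraries of the study, 3 for each of 4 groups. DIO mice were wild-type C57BL/6 females fed a diet in which fat gave 45% of the calories and to which 0.2% cholesterol was added. The ob/ob mice were C57BL/6 females that lack leptin and ate a normal diet. All mice were ovariectomized, so the controls of both models lacked ovarian hormones. Mice received vehicle or E2 at 5 µg per kg per day for 6 weeks, beginning at ovariectomy in DIO mice and a week after it in ob/ob mice. Ages were not given in the sources used here. The study states 3 mice per group for sequencing, although the sample records speak of 2 per group.

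Estradiol acts in liver mainly through estrogen receptor alpha, a ligand-activated transcription factor encoded by Esr1 that is found in hepatocytes and other liver cells. In rodents estradiol also shapes the pituitary pattern of growth hormone release, which drives female-biased liver genes through the kinase JAK2 and the factor STAT5. Leptin is the adipose hormone that limits feeding, so DIO mice are obese with the hormone present and ob/ob mice are obese without it. Leptin signalling was not measured here.

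The DIO libraries held 19347667 to 21424489 counts each. Those of ob/ob mice held 10470665 to 16911262, and the shallowest was a vehicle library, L8. The read file names give the models different index sequences and lane tags. Differences in level between the models therefore cannot be told apart from whatever these tags mark, and only effects within a model were compared. Genotype, diet, start of treatment after ovariectomy and these tags all differed together between the models. A difference of effects therefore cannot be assigned to any of them alone. In bulk liver, fewer cells of a type and less RNA per cell cannot be told apart either. Hepatocyte markers (17 tested) were abundant in every library, with summed levels of 108565 to 200837 CPM (counts scaled to a common library size).

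One library of the DIO E2 group, WE14, was nearer to a vehicle library than to its own group. Across the genes tested, its nearest library was a DIO vehicle library, WV7 (r = 0.987), whereas WE3 and WE18, the other E2 libraries of DIO mice, were nearest to each other (r = 0.982). WE18 was almost as near to WE14 (r = 0.980), and WE3 was further from WE14 (r = 0.968). Changes also followed gene length. Set against the vehicle mean of its model, the change in a library correlated with gene length across genes at a Spearman rho of -0.44 in WE14, -0.20 in WE18 and 0.24 in WE3. On that measure WE18 lay between WE14 and WE3, and nearer to WE14. In the ob/ob E2 libraries rho lay between -0.30 and -0.26, and in the vehicle libraries of both models between -0.24 and 0.17. These are descriptions across genes of 1 library each. Counts, group medians and the leading genes are therefore given with all 12 libraries and without WE14, and other single values are from the 12 libraries unless stated. Because WE14 was singled out on these same data, values without it are not independent evidence.

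**Figure D1:**
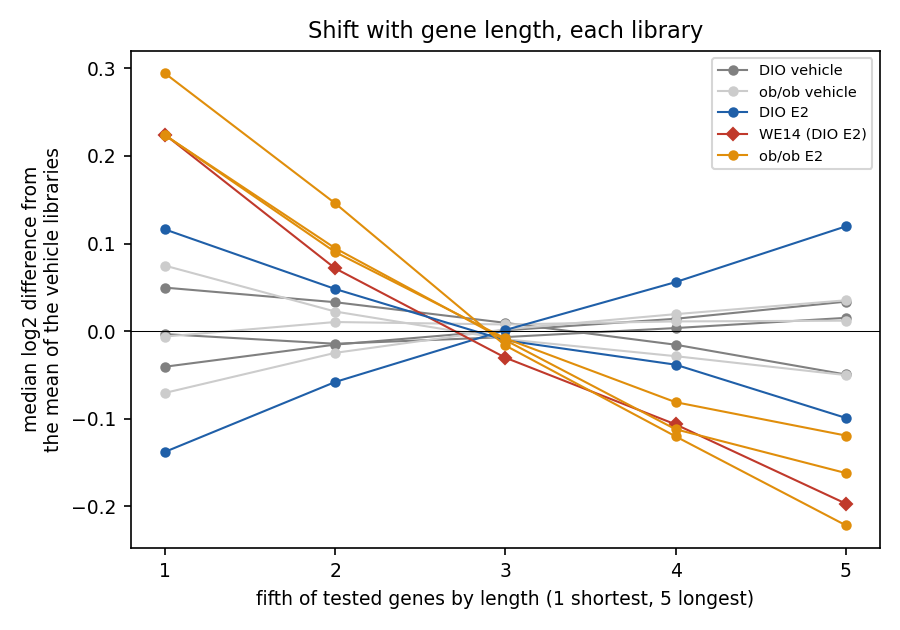
Median log2 difference of each library from the mean of its model's vehicle libraries (y axis) in 5 equal groups of tested genes ordered by length (x axis). WE14 runs from 0.22 in the shortest genes to -0.20 in the longest, close to the ob/ob E2 libraries, while WE3 runs the opposite way, from -0.14 to 0.12.

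With all 12 libraries the number of genes called depended on the test. Of 14123 genes tested with edgeR's quasi-likelihood test, 8 passed a Benjamini-Hochberg adjusted p of 0.05 for the difference of effects. Here higher in DIO means a positive difference, which a fall in ob/ob liver alone can give. Likewise, lower in DIO means a negative difference, which a rise in ob/ob liver alone can give. F2r alone was higher in DIO (0.00708% of genes tested), and Cyp2c40, Mup-ps16, Atat1, Sphk2, Nr0b2, Egfl7 and Clec4g were lower in DIO (0.0496%). An unadjusted p under 0.05 was reached by 1241 genes higher in DIO (8.79%) and 1205 lower (8.53%). For 7951 genes (56.3%) the 95% interval of the difference lay within 1 log2 unit of 0, so that a difference above 2-fold was outside the interval. In the same fit 2488 genes passed the test for E2 in ob/ob liver, 1185 higher and 1303 lower, and 0 passed in DIO liver, where 978 had an unadjusted p under 0.05. For the difference itself the DESeq2 Wald test called 226 genes higher and 173 lower, edgeR without a filter on low counts 93 and 75, and limma voom 1 and 7. DESeq2 called 49 genes for E2 in DIO liver and limma voom 0. Across all genes tested, the effects in the models correlated weakly (Pearson r = 0.27, Spearman rho = 0.22); the points share libraries, depth and the trend with gene length.

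Cyp2c40, a female-biased cytochrome P450 that metabolizes arachidonic acid, had the largest difference among these 8 genes. In ob/ob liver its level was 7.88, 8.01 and 17.1 CPM with vehicle and 195, 156 and 155 CPM with E2. In DIO liver it was 267, 216 and 229 CPM with vehicle and 340, 326 (WE14) and 441 CPM with E2. E2 libraries lay above vehicle libraries in both models, and the effect was 3.93 ± 0.27 (log2 fold change ± SE, n = 3 per group) in ob/ob liver against 0.64 ± 0.24 in DIO liver. The difference was -3.29 ± 0.35 (adjusted p = 0.00383) and -3.21 ± 0.39 without WE14 (adjusted p = 0.00227). Cyp2c40 (chr19:39755517-39801258, minus strand, GRCm39) has near-identical neighbours in the Cyp2c cluster, so the assignment of its reads is uncertain.

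F2r encodes the thrombin receptor PAR1. It was 52.8, 53.5 and 41.6 CPM with vehicle and 15.8, 17.5 and 19.1 CPM with E2 in ob/ob liver. In DIO liver it was 14.97, 17.95 and 14.61 CPM with vehicle and 16.3, 14.5 (WE14) and 15.1 CPM with E2. The gene fell with E2 in ob/ob liver (-1.49 ± 0.14) with no overlap of libraries, whereas the DIO groups overlapped (-0.05 ± 0.14). The difference was 1.45 (95% interval 1.04 to 1.86, adjusted p = 0.0120), and 1.48 without WE14. F2r lies at chr13:95738288-95754974 on the minus strand.

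Nr0b2 encodes SHP, a nuclear receptor without a DNA-binding domain that represses bile acid synthesis, and is a listed estrogen receptor target. Vehicle livers of ob/ob mice had 33.9, 30.7 and 31.0 CPM, and E2 livers had 70.3, 77.9 and 63.6 CPM. In DIO mice vehicle livers had 36.6, 36.9 and 41.9 CPM, and E2 livers had 25.1, 41.5 (WE14) and 34.8 CPM. It rose with E2 in ob/ob liver (1.15 ± 0.16) and did not pass the test in DIO liver (-0.19 ± 0.15), and the difference of -1.33 (95% interval -1.80 to -0.87) had an adjusted p of 0.0360. Without WE14 both remaining E2 libraries of DIO mice lay below the vehicle libraries, and the difference was -1.51 ± 0.20 (adjusted p = 0.00155). Nr0b2 lies at chr4:133280687-133283997 on the plus strand.

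Clec4g and Egfl7 are genes of liver endothelial cells, the first a C-type lectin of sinusoidal cells and the second a secreted factor of vessels. Clec4g had 26.5, 27.0 and 26.8 CPM with vehicle and 66.6, 69.3 and 68.7 CPM with E2 in ob/ob liver. Its DIO levels were 43.5, 40.8 and 45.5 CPM with vehicle and 64.7, 51.4 (WE14) and 54.5 CPM with E2. E2 libraries were thus above vehicle libraries in both models, and the difference of -0.95 ± 0.15 (adjusted p = 0.0360, -0.89 without WE14) was one of size. Egfl7 had 13.1, 13.7 and 14.7 CPM with vehicle and 29.7, 40.1 and 35.6 CPM with E2 in ob/ob liver, without overlap. The DIO groups overlapped, at 24.4, 20.1 and 24.5 CPM with vehicle and 19.5, 27.8 (WE14) and 22.3 CPM with E2. The Egfl7 difference was -1.33 ± 0.22 (adjusted p = 0.0360), and -1.48 without WE14. Clec4g lies at chr8:3757066-3770695 (minus strand) and Egfl7 at chr2:26471095-26482694 (plus strand).

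Sphk2 encodes sphingosine kinase 2, which makes sphingosine-1-phosphate. It had 38.6, 32.9 and 36.8 CPM with vehicle and 72.3, 85.0 and 67.1 CPM with E2 in ob/ob liver. DIO libraries had 53.0, 51.7 and 51.8 CPM with vehicle and 47.8, 48.9 (WE14) and 31.5 CPM with E2. All E2 libraries were above vehicle in ob/ob liver and below vehicle in DIO liver, although the DIO effect of -0.29 ± 0.15 did not pass the test. Its difference was -1.34 ± 0.22 (adjusted p = 0.0360), and -1.44 without WE14. Atat1, the acetyltransferase of alpha-tubulin, had 8.79, 5.96 and 7.97 CPM with vehicle and 15.2, 23.2 and 20.9 CPM with E2 in ob/ob liver. Its DIO libraries ranged from 17.9 to 22.9 CPM over both treatments, the highest being WE14, and the difference was -1.51 ± 0.25 (adjusted p = 0.0360, -1.63 without WE14). Mup-ps16, a pseudogene of the major urinary proteins, had 36.6, 25.4 and 33.4 CPM with vehicle and 96.5, 104 and 115 CPM with E2 in ob/ob liver. Its DIO levels were 257, 243 and 246 CPM with vehicle and 125, 284 (WE14) and 181 CPM with E2, and the difference was -2.06 ± 0.32 (adjusted p = 0.0360, -2.42 without WE14). Its reads cannot be separated with certainty from those of the other Mup genes.

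**Figure D2:**
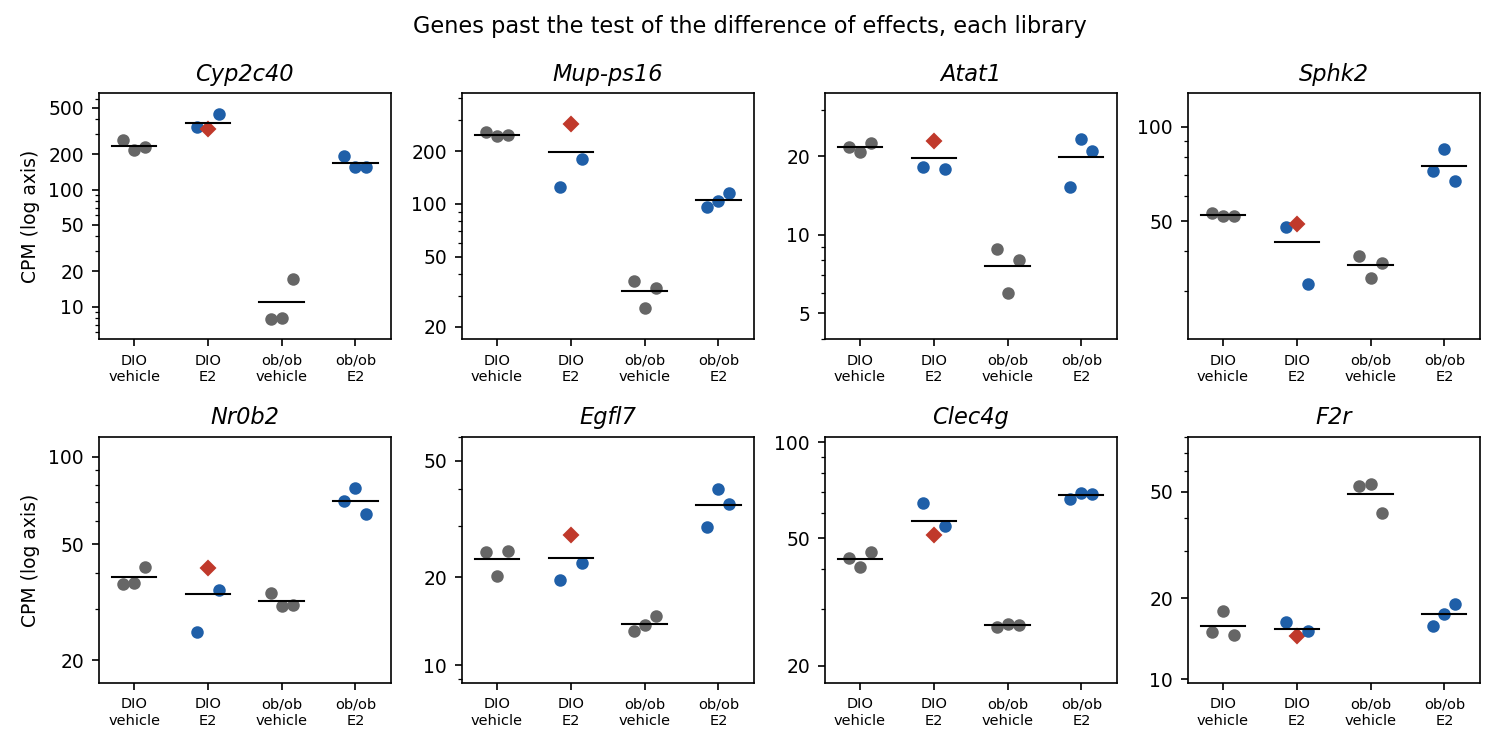
CPM of the 8 genes that passed the test of the difference of effects, 1 point per library on a log axis, with bars at group means and WE14 as a red diamond. The ob/ob vehicle libraries of Cyp2c40 sit between 7.88 and 17.1 CPM while its other 9 libraries sit between 155 and 441 CPM.

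All 8 genes passed the test without WE14 as well, and kept the sign of their difference under each of 20 alternatives. Cyp2c40 passed under all 20, F2r under 17, and each of the other 6 under 11 to 13. With the ob/ob vehicle library L8, the ob/ob E2 library L12 or the DIO vehicle library WV9 left out, 1 of the 8 passed. That 1 gene was Cyp2c40 in each case.

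The upstream sequences of 3 of these genes are shown, since they stand for the nuclear receptor, endothelial and cytochrome genes of the result. Each run holds the 250 bases before the RefSeq start on GRCm38.p6, 5′ to 3′, with capitals for half-sites of the estrogen response element (GGTCA or TGACC), the STAT5 motif (TTC and GAA with 3 bases between) and the E-box CACGTG, searched on both strands. Nr0b2 is chr4:133553126-133553375 (plus strand), Clec4g chr8:3720652-3720901 (minus strand) and Cyp2c40 chr19:39812815-39813064 (minus strand).
Nr0b2: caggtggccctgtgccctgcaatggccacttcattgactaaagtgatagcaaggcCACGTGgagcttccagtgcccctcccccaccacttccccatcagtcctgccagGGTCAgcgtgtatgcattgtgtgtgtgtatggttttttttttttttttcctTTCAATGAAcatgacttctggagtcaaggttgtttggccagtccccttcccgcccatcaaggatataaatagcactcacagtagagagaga
Clec4g: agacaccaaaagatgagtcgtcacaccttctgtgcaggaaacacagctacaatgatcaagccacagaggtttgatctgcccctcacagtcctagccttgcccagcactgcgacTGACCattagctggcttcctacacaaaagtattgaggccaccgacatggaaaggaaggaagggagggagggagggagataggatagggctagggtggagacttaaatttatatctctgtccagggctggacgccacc
Cyp2c40: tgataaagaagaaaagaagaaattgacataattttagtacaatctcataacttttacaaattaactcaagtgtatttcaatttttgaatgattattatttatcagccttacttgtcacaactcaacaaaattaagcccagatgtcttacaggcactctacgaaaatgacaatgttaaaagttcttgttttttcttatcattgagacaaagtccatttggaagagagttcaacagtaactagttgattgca
The Nr0b2 run holds an E-box, a half-site and a STAT5 motif that begin 195, 142 and 91 bases before the start. The Clec4g run holds a half-site 137 bases before the start, and the Cyp2c40 run holds 0 matches. Over promoters of the genes tested that were found in the table (11163 of 14123 genes, 14312 promoters of 300 bases), half-sites occurred in 39%, the STAT5 motif in 7.03% and the E-box in 9.5%. A full element, which contains both half-sites with 3 bases between, occurred in 1 of them. A match is a description of letters and not of binding.

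The next genes by p with a positive difference had adjusted p-values of 0.0519 to 0.0533 with 12 libraries and so did not pass. They were Gcnt2, Cers6, Ppat, Sorbs2, Cbr3, Eaf1, Srxn1, Tgfbr2, Serpinb6a, Dhx9 and Cbr1, with differences between 0.83 and 2.52. Cers6, a ceramide synthase, was 26.0, 25.1 and 31.3 CPM with vehicle and 16.7, 15.7 and 19.2 CPM with E2 in ob/ob liver, and 32.0, 29.8 and 30.9 CPM with vehicle and 42.3, 34.9 (WE14) and 38.5 CPM with E2 in DIO liver. Its groups did not overlap in either model and went opposite ways (0.32 in DIO, -0.68 in ob/ob). Cbr1 and Cbr3 encode carbonyl reductases. Cbr3 fell with E2 in ob/ob liver from 21.4 to 30.9 CPM with vehicle to 4.60 to 6.34 CPM, and in DIO liver it stayed between 0.44 and 1.36 CPM. On the other side, Grik5, Ms4a1, Mapk15, Aldh3b3 and BC024386 had differences between -3.89 and -1.34 and adjusted p-values near 0.052. Aldh3b3 rested on 1 to 5 reads per ob/ob vehicle library.

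Without WE14 the count of genes with a model-dependent response was 1023 of 14232, 564 higher (3.96%) and 459 lower (3.23%) in DIO. The effect of E2 itself passed for 303 genes in DIO liver in that fit, and for 3268 genes in the ob/ob model. The correlation of effects fell to a Pearson r of 0.17 and a Spearman rho of 0.05. For 7362 genes (51.7%) the 95% interval of the difference stayed within 1 log2 unit of 0. Most of the 1023 genes had effects of opposite sign in the models, 520 of the 564 higher genes and 391 of the 459 lower genes. A choice by the difference of effects itself favours opposite signs and parts the median effects. The share over all genes tested was not counted, so these values describe the chosen genes only. Effects of opposite sign with an unadjusted p under 0.05 in each model were fewer, at 170 and 161. In 334 and 220 genes the ob/ob effect alone had such a p, and in 56 and 61 the DIO effect alone. Median effects of the higher genes were 0.28 in DIO and -0.60 in ob/ob, and of the lower genes -0.41 and 0.76.

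The values of WE14 did not enter the choice of these 1023 genes, but WE14 had been set aside on these same data. Of these genes 8 passed with WE14 included. Values of WE3, WE18 and the ob/ob E2 libraries helped choose the genes, so their medians below are no separate evidence. Over the 564 higher genes, the median change from the DIO vehicle mean was 0.35 in WE3, 0.21 in WE18 and -0.26 in WE14, beside -0.73 to -0.47 in the ob/ob E2 libraries. Over the 459 lower genes it was -0.48, -0.37 and 0.15, beside 0.61 to 0.87. In both sets the WE14 median had the sign of the ob/ob E2 medians, which is a description and not a test. The 3 DIO changes share their vehicle libraries and are given side by side only.

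**Figure D3:**
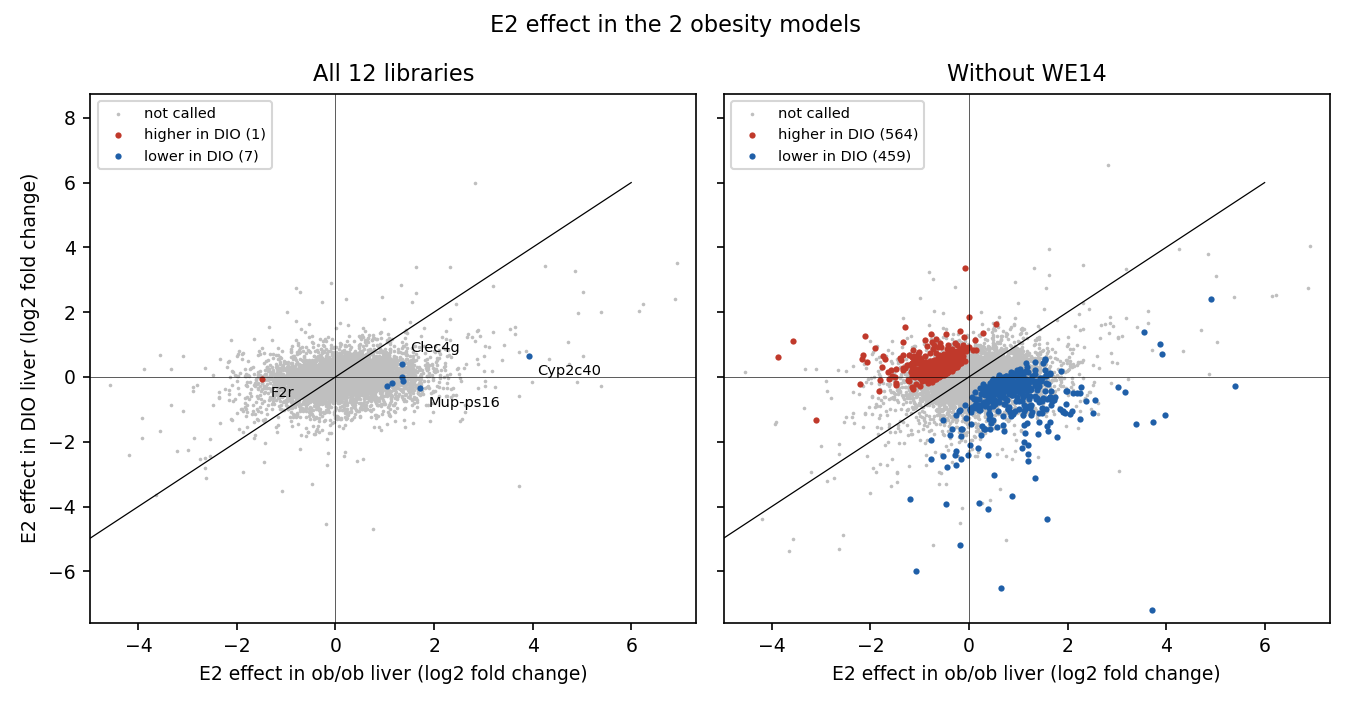
Log2 fold change with E2 in ob/ob liver (x axis) and in DIO liver (y axis) for each tested gene, with all 12 libraries (left) and without WE14 (right). Genes past the test of the difference are coloured, 1 higher and 7 lower on the left and 564 and 459 on the right, and the line marks equal effects.

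Leaving out any other library moved the count less than leaving out WE14. It was 267 (136 higher, 131 lower) without the ob/ob E2 library L1, 38 (14 and 24) without L3 and 22 (9 and 13) without WV7, and between 1 and 11 without each of the other 8.

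**Figure D4:**
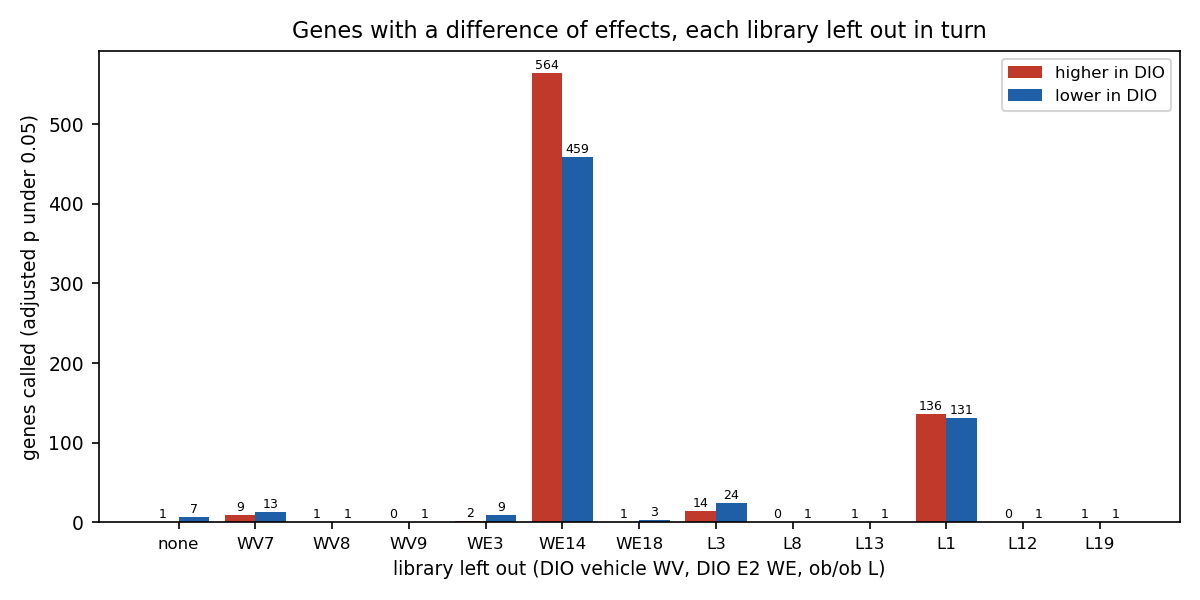
Number of genes with an adjusted p under 0.05 for the difference of effects (y axis) when each library named on the x axis was left out, higher in DIO in red and lower in blue. Without WE14 the bars reach 564 and 459, and without L1 they reach 136 and 131.

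The largest differences without WE14 belonged to genes near the limit of detection in 1 group. Cfd encodes complement factor D, an adipsin made mainly by adipocytes. In DIO liver it had 240, 307 and 200 reads with vehicle and 2, 67 (WE14) and 1 reads with E2. In ob/ob liver it had 2, 0 and 0 reads with vehicle and 10, 11 and 10 reads with E2. The CPM ratio of vehicle to E2 in DIO liver without WE14 was 161 (95% exact interval 54.9 to 783 for counting error only), and that of E2 to vehicle in ob/ob liver was 15.03 (3.83 to 130). Groups did not overlap in either model, and the fitted difference of -10.91, which depends on the prior count, had an adjusted p of 4.6e-06. With all 12 libraries it was -7.08 (adjusted p = 0.161). H19, a fetal noncoding RNA, had 6.51, 7.27 and 8.51 CPM with vehicle and 0.27, 3.49 (WE14) and 0.73 CPM with E2 in DIO liver, against 2.34 to 8.10 CPM and 5.19 to 8.66 CPM in ob/ob liver. Mab21l3 had 0 reads in both WE3 and WE18 and 16 reads over the DIO vehicle group. A floor of 3 reads over the E2 group would put its level 3.45-fold lower. The 95% exact interval for counting error reached up to a CPM ratio of E2 to vehicle of 0.40.

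Among the largest positive differences without WE14, Tsku, which encodes the secreted protein tsukushi, had 95.4, 44.5 and 47.5 CPM with vehicle and 99.7, 44.1 (WE14) and 268 CPM with E2 in DIO liver. In ob/ob liver it had 85.0, 159 and 157 CPM with vehicle and 46.0, 47.2 and 70.3 CPM with E2. Its DIO change of 1.56 without WE14 rested on WE18, since WE3 lay close to the highest vehicle library. Tubb2b, a tubulin gene, fell in ob/ob liver from 57, 107 and 52 reads to 3, 3 and 10 reads and had 2 to 8 reads in each DIO library. Snai3, Kif26b, Ihh and Nup62cl completed this set, with differences of 3.44, 2.83, 2.81 and 2.74. With all 12 libraries these 6 genes, H19 and Mab21l3 had adjusted p-values of 0.0928 to 0.226.

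Several genes with opposite effects were expressed well above that limit. Col5a3, a fibrillar collagen chain, had 22.0, 22.2 and 20.8 CPM with vehicle and 7.03, 14.1 (WE14) and 6.42 CPM with E2 in DIO liver. In ob/ob liver it had 23.4, 25.2 and 21.6 CPM with vehicle and 27.2, 48.5 and 39.5 CPM with E2. All E2 libraries, WE14 included, lay below vehicle in DIO liver and above it in ob/ob liver. The difference was -1.95 ± 0.37 with 12 libraries (adjusted p = 0.057) and -2.40 ± 0.26 without WE14 (adjusted p = 0.00027). Clstn3, a calsyntenin, had 35.0, 26.9 and 24.3 CPM with vehicle and 4.704, 28.4 (WE14) and 6.06 CPM with E2 in DIO liver, and its difference moved from -1.52 (adjusted p = 0.37) to -2.81 (adjusted p = 0.00022). In ob/ob liver the vehicle and E2 libraries of Clstn3 overlapped. Pik3r1, the regulatory subunit of PI3-kinase, had 75.9, 72.1 and 65.0 CPM with vehicle and 104, 53.9 (WE14) and 119 CPM with E2 in DIO liver. It had 101, 91.2 and 105 CPM with vehicle and 58.9, 43.4 and 58.9 CPM with E2 in ob/ob liver. Its difference was 1.26 (adjusted p = 0.10) with WE14 and 1.54 (adjusted p = 0.0015) without. Rapgef4, an exchange factor activated by cyclic AMP, followed the same pattern, at 1.28 and 1.57. Plekhf1, a phosphoinositide-binding endosomal protein, was 6.90, 6.92 and 7.28 CPM with vehicle and 2.79, 9.54 (WE14) and 3.29 CPM with E2 in DIO liver, with differences of -1.12 and -1.90.

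Gene groups were described by counting members at an unadjusted p under 0.05 for the difference (background 8.79% higher and 8.53% lower) and by the median difference, which was -0.02 over all genes tested and -0.04 without WE14. Where a group is said to shift, its median over the same members is also given without WE14. Counts of members that rose or fell with E2 within a model use the adjusted p of 0.05 for that effect instead. Over all 14123 genes tested, 1185 rose and 1303 fell in ob/ob liver by that measure. In DIO liver without WE14, 160 rose and 143 fell of 14232.

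Estrogen receptor genes themselves showed no model dependence that passed the test. Esr1 had 33.0 to 47.3 CPM with vehicle and 81.8, 45.4 (WE14) and 101 CPM with E2 in DIO liver, and 10.6 to 17.98 CPM and 19.7 to 26.0 CPM in ob/ob liver. The effects were 0.99 and 0.76, and their difference was 0.23 ± 0.41 (adjusted p = 0.80), or 0.50 ± 0.31 without WE14. Esr2 had 0 reads in all 12 libraries, and Gper1, Greb1 and Pgr had at most 2 per library. Of 12 tested members of the list of receptors and classical targets, 1 was higher and 2 were lower. Nr0b2 was lower, as described, and Foxa2, a pioneer factor, had a difference of -0.39, whereas the coactivator Ncoa2 had one of 0.79. Lepr, the leptin receptor gene, had 37.3 to 38.2 CPM with vehicle and 59.2, 34.7 (WE14) and 42.2 CPM with E2 in DIO liver, and its difference was 0.32 ± 0.26 (0.48 ± 0.23 without WE14). Of 10 members of the leptin receptor pathway 1 was higher and 0 were lower. Ptpn11, the phosphatase SHP2, had 74.7 to 78.9 CPM with vehicle and 40.7 to 59.8 CPM with E2 in ob/ob liver, and its difference was 0.75 (0.86 without WE14, adjusted p = 0.025).

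Of 34 female-biased liver genes, all tested, 11 rose and 2 fell with E2 in ob/ob liver. In DIO liver 0 passed with 12 libraries, and 10 rose and 1 fell without WE14. The mean change of the 34 members from the vehicle mean was 1.89, 1.16 and 1.29 in the ob/ob E2 libraries and 1.003, 0.30 (WE14) and 1.09 in DIO. The median difference was -0.32 (-0.30 without WE14), and 3 members were higher and 8 lower. Cux2, a female-specific transcription factor under growth hormone control, had 1.12, 1.51 and 3.47 CPM with vehicle and 16.5, 13.8 and 14.7 CPM with E2 in ob/ob liver. In DIO mice the levels were 33.9, 39.9 and 47.6 CPM with vehicle and 120, 55.5 (WE14) and 87.4 CPM with E2. E2 libraries lay above vehicle in both models, and the difference of -1.72 did not pass (adjusted p = 0.14). Cyp2c69, a neighbour of Cyp2c40, had 197, 276 and 243 CPM with vehicle and 1368, 258 (WE14) and 1174 CPM with E2 in DIO liver, against 1.12 to 2.34 CPM and 41.9 to 79.3 CPM in ob/ob liver. Its difference was -2.95 with WE14 and -2.51 without (adjusted p = 0.0075). Hao2, a peroxisomal hydroxyacid oxidase, had 2.67 to 8.86 CPM with vehicle and 23.7 to 38.3 CPM with E2 in ob/ob liver. DIO livers had 42.4 to 55.5 CPM with vehicle and 15.9, 50.9 (WE14) and 33.4 CPM with E2, and without WE14 its difference was -3.13 (adjusted p = 0.026). Hamp2, a hepcidin copy, had a difference of -1.64 with an adjusted p of 0.13.

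The 17 tested male-biased genes had a median difference of -0.11 (-0.33 without WE14), with 2 higher and 3 lower. That median kept its sign under 10 of 20 alternatives, with a range of -0.20 to 0.19. Mup3, a major urinary protein gene, had 378, 498 and 741 CPM with vehicle and 1569, 1000 and 917 CPM with E2 in ob/ob liver, and 1841, 2648 and 2186 CPM with vehicle and 1203, 2187 (WE14) and 1258 CPM with E2 in DIO liver. Without WE14 the groups did not overlap and went opposite ways, and its difference was -1.96 (adjusted p = 0.015). Reads of Mup genes may be shared. Susd4 and C6, both of the complement system, had differences of -2.11 and 0.81 without WE14.

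The growth hormone, STAT5 and IGF1 axis had a median difference of -0.47 over 16 members (-0.42 without WE14), with 0 higher and 5 lower. Its mean change was 0.80, 0.79 and 0.71 in the ob/ob E2 libraries and 0.34, -0.02 (WE14) and 0.29 in DIO. Igfals, which carries IGF1 in plasma, had 27.5, 21.8 and 29.9 CPM with vehicle and 85.0, 83.1 and 68.6 CPM with E2 in ob/ob liver. In DIO liver it had 80.8, 114 and 111 CPM with vehicle and 188, 101 (WE14) and 188 CPM with E2, and the difference was -0.93 (adjusted p = 0.17). Igfbp2, Stat5a and Stat5b had differences of -1.41, -0.53 and -0.43. None of the 5 passed with 12 libraries.

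**Figure D5:**
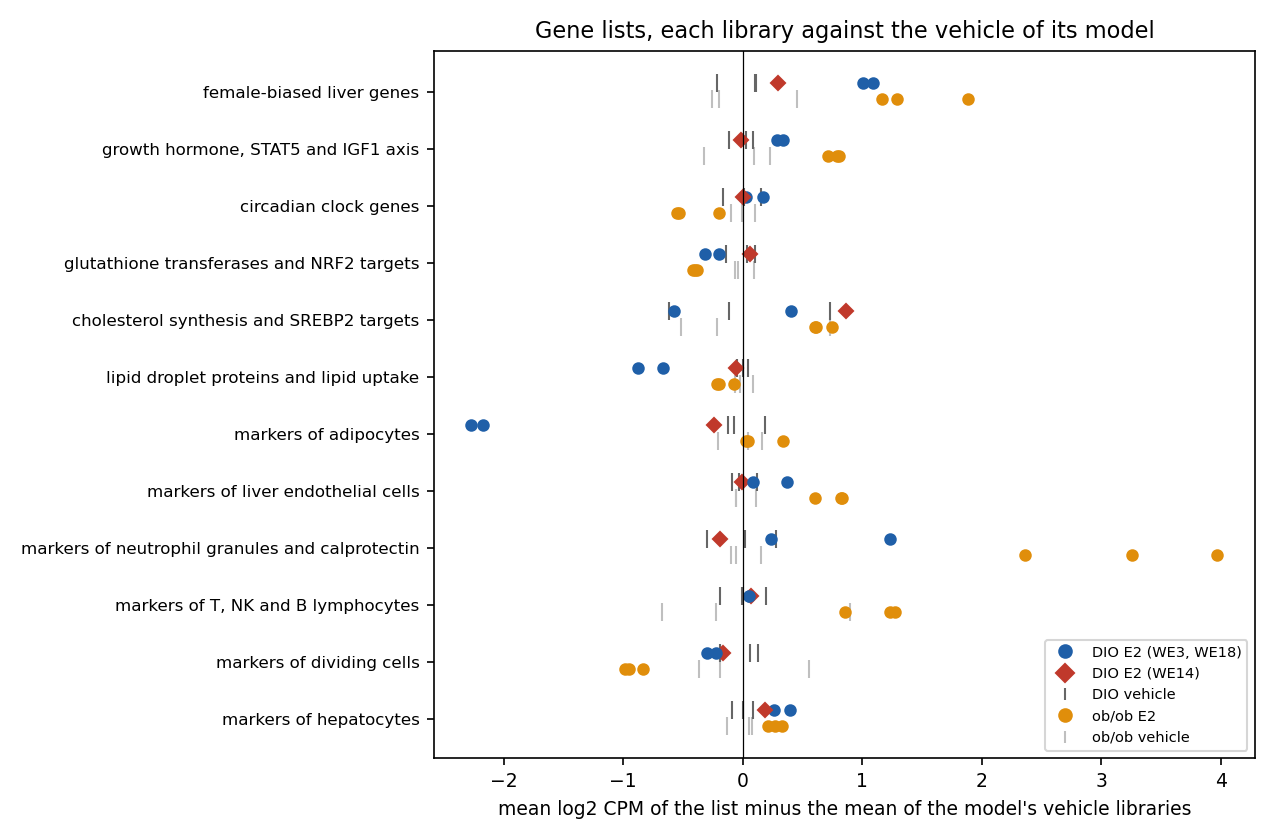
Mean log2 CPM of the tested members of 12 gene lists in each library, relative to the average vehicle library of the same model (x axis). In neutrophil markers the ob/ob E2 libraries lie between 2.36 and 3.97 and the DIO E2 libraries between -0.19 and 1.24, and in adipocyte markers WE3 and WE18 lie at -2.27 and -2.17 beside -0.24 in WE14.

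Of 20 markers of liver endothelial cells, all tested, 14 rose and 0 fell with E2 in ob/ob liver. For the difference 12 were lower in DIO with 0 higher, Clec4g and Egfl7 among them. The median difference was -0.56 (-0.53 without WE14, -0.51 with the length trend removed), and 19 of 20 differences were negative. Their summed level was 420 to 478 CPM with vehicle and 690 to 819 CPM with E2 in ob/ob liver, without overlap. The DIO sums were 567 to 651 CPM with vehicle and 592 to 834 CPM with E2. Oit3, Fcgr2b and Eng, all genes of sinusoidal endothelium, had differences of -0.98, -0.83 and -0.85, and passed without WE14 (adjusted p between 0.029 and 0.037).

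Of 20 Kupffer cell and macrophage markers, 10 rose and 3 fell with E2 in ob/ob liver, with a median difference of -0.15 (-0.03 without WE14) and 0 higher and 3 lower. Clec4f, a Kupffer cell lectin, had 52.4 to 85.0 CPM with vehicle and 155 to 218 CPM with E2 in ob/ob liver, and 114 to 148 CPM with vehicle and 171 to 193 CPM with E2 in DIO liver. Libraries did not overlap in either model, and the difference was -0.95 (adjusted p = 0.11). C1qa and Folr2 had -0.65 and -0.87.

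Neutrophil granule and calprotectin genes had the largest median difference of the 34 lists. Of 16 tested members 12 rose with E2 in ob/ob liver, and the median difference was -2.91 (-2.52 without WE14), with 0 higher and 7 lower. Their summed level was 89.6 to 220 CPM with vehicle and 176 to 514 CPM with E2 in ob/ob liver, which overlap, and 23.7 to 75.6 CPM and 28.8 to 44.8 CPM in DIO liver. S100a8, a calprotectin subunit, had 1.25, 1.60 and 1.62 CPM with vehicle and 21.8, 81.2 and 42.9 CPM with E2 in ob/ob liver, and 0.29 to 1.92 CPM in the 6 DIO libraries. Its difference was -4.39 ± 1.05 (adjusted p = 0.11). Elane, neutrophil elastase, had 4, 1 and 0 reads with vehicle and 27, 129 and 74 reads with E2 in ob/ob liver and 3 to 6 reads in each DIO library, and passed without WE14 (-5.66, adjusted p = 0.025). Cebpe, a granulocyte transcription factor, had 5.93 to 7.43 CPM with vehicle and 1.57 to 4.31 CPM with E2 in DIO liver, and had a difference of -1.77 without WE14 (adjusted p = 0.0062). Ctsg, Ly6g and Padi4 had too few reads to be tested with 12 libraries. They entered the test without WE14, and none of them passed.

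Lymphocyte markers had a median difference of -0.998 (-0.84 without WE14), with 0 higher and 7 lower of 19 tested. Their summed level was 17.5 to 40.3 CPM with vehicle and 45.4 to 75.2 CPM with E2 in ob/ob liver, and 54.3 to 74.2 CPM and 70.7 to 77.6 CPM in DIO liver. In mean log2 level the ob/ob vehicle libraries spread from -0.67 in L8 to 0.90 in L3, and L3 lay above the E2 library L1 (0.86). The B-cell genes Ms4a1, Cd79b and Cd79a were among those lower at this p, with differences of -3.89, -2.37 and -2.10. Cd79b, a part of the B-cell receptor, had 0.72 to 1.64 CPM with vehicle and 2.57 to 4.36 CPM with E2 in ob/ob liver, and 2.02 to 3.41 CPM and 1.502 to 1.74 CPM in DIO liver. In both models its groups did not overlap, and they went opposite ways. These genes rest on 1 to 77 reads per library, with 1 or 10 reads in L8. Of 14 pancreatic markers 2 were tested. Cela2a, a pancreatic elastase with at most 0.81 CPM, had a difference of -2.55 (-2.16 without WE14), and Cela1 had -0.01 (-0.04). Erythroid markers had 1 higher and 1 lower of 10 tested and a median difference of -0.41 (-0.72 without WE14, -0.12 with the length trend removed). Their leading members were Tfrc, the transferrin receptor (1.82), and Epor (-1.02). Without WE14, 1 erythroid marker passed higher, Tfrc (2.01), and 1 lower, Alas2 (-1.44, adjusted p = 0.0042).

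Markers of dividing cells had differences of the opposite sign. Of 26 members, all tested, 15 fell with E2 in ob/ob liver, and the median difference was 0.66 (0.63 without WE14), with 24 of 26 positive, 7 higher and 0 lower. The mean change was -0.95, -0.98 and -0.84 in the ob/ob E2 libraries and -0.30, -0.16 (WE14) and -0.22 in DIO. Mki67, the proliferation antigen, had 10.4, 19.6 and 12.4 CPM with vehicle and 6.43, 6.44 and 5.93 CPM with E2 in ob/ob liver, and 3.10 to 3.93 CPM and 3.81 to 4.60 CPM in DIO liver. Its difference was 1.39 ± 0.31 (adjusted p = 0.077), and 1.32 without WE14 (adjusted p = 0.027). Ccne1 and Ccne2, the cyclins of S-phase entry, had differences of 1.59 and 1.85, and Birc5 and Ccnb2, genes of mitosis, had 1.26 and 1.06.

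Of 23 lipid droplet and lipid uptake genes, 5 fell with E2 in DIO liver without WE14 and 0 with it, and 4 fell in ob/ob liver. The mean change of 23 members was -0.88 in WE3 and -0.67 in WE18, but -0.06 in WE14, beside -0.22 to -0.08 in the ob/ob E2 libraries. The median difference was -0.20 with 12 libraries (0 higher, 2 lower), turned to 0.02 with the length trend removed, and was -0.52 without WE14, where 6 members passed, all lower. Cidec, which enlarges lipid droplets, had 19.6, 15.4 and 15.1 CPM with vehicle and 0.78, 12.8 (WE14) and 1.72 CPM with E2 in DIO liver. In ob/ob liver it had 116, 171 and 112 CPM with vehicle and 42.8, 46.0 and 85.5 CPM with E2. It was below vehicle in every E2 library of both models, and the difference was -0.51 with WE14 and -2.57 without (adjusted p = 0.028). Fitm1, G0s2 and Pparg, which act in fat storage, had differences of -2.04, -1.15 and -0.91 without WE14 (adjusted p between 0.028 and 0.041). In that fit the DIO E2 libraries lay below vehicle for Fitm1 and Pparg but overlapped it for G0s2. In ob/ob liver E2 libraries lay above vehicle for G0s2, below it for Pparg, and overlapped it for Fitm1. Plin4, a droplet coat protein, had -1.59 with all 12 libraries (adjusted p = 0.18), and 12.8 to 32.8 CPM with vehicle against 4.98 to 7.51 CPM with E2 in DIO liver, WE14 included.

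Of 9 adipocyte markers 5 were tested, and Adipoq and Lep had at most 2 and 1 reads per library and Plin1 had 0. Those tested, among them Cfd, Cidec and Lipe, are also expressed in liver. The mean change of the 5 was -2.27 and -2.17 in WE3 and WE18 and -0.24 in WE14, and differed among members. Without WE14 the differences were -10.91 for Cfd, -2.57 for Cidec and -0.82 for Lipe, but -0.28 for Fabp4 and 0.26 for Pck1. Mogat1, a monoacylglycerol acyltransferase of the fatty acid and triglyceride list, had 5.15, 3.95 and 4.97 CPM with vehicle and 0.73, 3.10 (WE14) and 0.68 CPM with E2 in DIO liver, and 13.1 to 16.5 CPM and 10.3 to 14.1 CPM in ob/ob liver. Its difference was -1.37 (adjusted p = 0.24) with WE14 and -2.45 (adjusted p = 0.0015) without. The other members of that list, Mlxipl, Dgat2 and Agpat2, at this p had -0.86, 0.62 and -0.70, and the list's median of -0.13 over 26 members was -0.45 without WE14 and turned to 0.48 when WV7 was left out and to 0.14 when WE3 was.

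Cholesterol synthesis genes had a median difference of -0.41 over 25 members (-0.71 without WE14), with 0 higher and 2 lower, and it turned to 0.04 without the DIO vehicle library WV7. That list varied among DIO vehicle libraries, at 0.73, -0.61 and -0.12 from their mean in WV7, WV8 and WV9, beside -0.57, 0.86 (WE14) and 0.41 in the E2 libraries WE3, WE14 and WE18. Ebp, a sterol isomerase, had 97.4 to 137 CPM with vehicle and 212 to 246 CPM with E2 in ob/ob liver, and a difference of -0.76 (-0.94 without WE14, adjusted p = 0.028). Of 26 genes of fatty acid oxidation 1 was higher, Hadhb (0.49), and 2 were lower, with Vnn1 (-0.70) among them. Vnn1, a pantetheinase, passed without WE14 (-1.01, adjusted p = 0.036).

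In bile acid synthesis and transport 3 of 22 members were higher and 3 lower, with a median difference of 0.09 (-0.01 without WE14). Cyp8b1, the sterol 12-alpha-hydroxylase, had 399, 304 and 378 CPM with vehicle and 694, 767 and 540 CPM with E2 in ob/ob liver. DIO levels were 207, 139 and 168 CPM with vehicle and 132, 243 (WE14) and 106 CPM with E2, and its difference was -0.98 with WE14 and -1.41 without (adjusted p = 0.0080). Abcc2 and Slco1a4, transporters of organic anions, had 0.70 and 0.74, and Cyp7b1, the oxysterol 7-alpha-hydroxylase, had -0.54.

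Circadian clock genes had a median difference of 0.74 over 19 members (0.68 without WE14, 0.74 with the length trend removed), with 7 higher and 3 lower. Their mean change was -0.54, -0.55 and -0.20 in the ob/ob E2 libraries and between 0.00 and 0.17 in DIO. Tef, an output factor of the clock, had 100, 94.8 and 118 CPM with vehicle and 37.1, 38.7 and 75.0 CPM with E2 in ob/ob liver, and 151 to 252 CPM over both DIO groups. Nfil3, which opposes such factors at shared sites, had 13.7, 10.7 and 7.37 CPM with vehicle and 32.5, 35.5 and 21.7 CPM with E2 in ob/ob liver, and 11.1 to 15.3 CPM and 13.95 to 18.96 CPM in DIO liver. The differences of Tef and Nfil3 were 1.12 and -1.06, and neither passed. Hlf and Bhlhe40 (0.78 and 0.81) passed without WE14. The hour at which livers were taken was not given in the sources used here.

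Glutathione transferases and NRF2 targets had 8 higher and 1 lower of 23 tested and a median difference of 0.33 (0.14 without WE14). Srxn1, sulfiredoxin, had 205, 220 and 208 CPM with vehicle and 95.3, 101 and 105 CPM with E2 in ob/ob liver, and 47.2 to 56.2 CPM and 41.9 to 47.8 CPM in DIO liver. Its difference was 0.83 ± 0.16 (adjusted p = 0.052). Gsr, the glutathione reductase, and Nqo1, a quinone reductase, had 0.61 and 0.60, and Gstt1 had -0.71. All 4 passed without WE14. Among xenobiotic cytochromes and their receptors, 4 of 16 were higher and 2 lower. Cyp2a5 had 522, 527 and 1019 CPM with vehicle and 274, 200 and 307 CPM with E2 in ob/ob liver, and its difference was 1.89 (1.99 without WE14, adjusted p = 0.045). Por, which passes electrons to cytochromes P450, had 0.85 (0.90 without WE14, adjusted p = 0.040), and Nr1i3, the receptor CAR, had -1.21.

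The remaining groups are given by the same counts. Of 26 collagen and matrix genes 1 was higher and 4 lower, and 22 differences were negative. Their median difference was -0.32 (-0.33 without WE14, -0.38 with the length trend removed). The laminin genes split, with Lamc1 at 0.70 and Lama4 at -1.22. Endoplasmic reticulum chaperones and stress genes had 2 higher and 2 lower of 22. Without WE14, 3 of them passed higher and 1 lower, Chac1 (-1.96, adjusted p = 0.045). Dnajb9, a chaperone of the lumen, had 68.4 to 72.8 CPM with vehicle and 37.2 to 52.4 CPM with E2 in ob/ob liver and 41.9 to 51.7 CPM with vehicle and 68.2, 38.8 (WE14) and 63.2 CPM with E2 in DIO liver, and passed without WE14 (1.23, adjusted p = 0.0042). Glucose handling enzymes had 1 higher, Pfkfb3 (1.70), and 1 lower, Gckr (-0.56), of 18. Pericentral hepatocyte genes had 0 higher and 4 lower of 16, led by the ammonium transporter Rhbg (-1.17), with a median of -0.24 (-0.12 without WE14). Periportal genes had 2 higher and 1 lower of 16, led by Aldh1b1 (0.64) and Cps1 (0.89), with a median of 0.13 (0.09 without WE14). Hepatocyte markers had 3 higher and 3 lower of 17.

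Coagulation genes had 1 higher and 3 lower of 19, interferon response genes 1 and 2 of 21, acute phase genes 1 and 1 of 22, stellate cell markers 1 and 2 of 17, and cholangiocyte markers 0 and 1 of 10. Respiratory chain subunits had 0 and 0 of 41, and cytosolic ribosomal proteins 0 and 0 of 48. Their medians of -0.16 and -0.13 were -0.34 and -0.17 without WE14, and turned to 0.09 and 0.14 with the length trend removed.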

How the data were processed

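Liver RNA of 12 mice was analysed as raw counts per gene that the authors deposited in 1 table per model, and gene length was taken from the same deposited tables. Per the file headers and the submitters' processing notes, reads were aligned with STAR 2.7.6a to GRCm39 and counted with featureCounts 2.0.0 (strand option 2) after CASAVA 1.8.2; the methods text of the study names other tools. The authors' tables of fold changes, p-values and normalized counts were not used. Tables were joined by gene (40840 genes). Genes passing filterByExpr were fitted with edgeR 4.0.16 in R 4.3.3 (TMM, robust quasi-likelihood F test, edgeR's default prior count for fold changes), with 1 mean per group and Benjamini-Hochberg adjustment at 0.05. A prior count of 2 was used only for log2 CPM. CPM values use TMM-scaled library sizes. Alternatives used DESeq2 1.42.0, limma 3.58.1, other filters, the PaPE-1 libraries, a loess on gene length (span 0.5) and each library left out. Scripts were tested on simulated data.

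Named genes were the 12 largest differences per direction (filled up by p), 6 per direction without WE14, 8 with opposite effects in each fit, receptor genes and up to 5 members of each of 34 lists by p. The rule did not state a fit for opposite effects, so both were used. WE14, the lists and the members were chosen with earlier results of these data known. An exact permutation test of 3 against 3 cannot go below a two-sided p of 0.1. The labels call the samples biological replicates. Intervals of read ratios cover counting error only. Promoters came from a RefSeq table of GRCm38.p6, matched by symbol, although their use had been planned for the build of the counts, and half-sites were added after seeing the data. Some genes that met the rule are not reported here.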

Additional observations from a re-analysis of the deposited data

Results flagged for a closer look

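Each gene here had effects of E2 that differed between the models by the edgeR test of the difference itself, at an adjusted p under 0.05. Values are differences of log2 effects, DIO minus ob/ob, and a positive value (higher in DIO) can come from a fall in ob/ob liver alone. A negative value (lower in DIO) can come from a rise in ob/ob liver alone. With 12 libraries these were Atat1 (-1.51), Clec4g (-0.95), Cyp2c40 (-3.29), Egfl7 (-1.33), F2r (1.45), Mup-ps16 (-2.06), Nr0b2 (-1.33) and Sphk2 (-1.34). A further 74 genes reported here passed only without WE14, 35 higher and 39 lower in DIO, and were not past the threshold when it was included. Among circadian, stress response and leptin pathway genes, the difference was positive for Atf6 (0.77), Bhlhe40 (0.90), Dnajb9 (1.23), Ern1 (1.03), Hlf (0.95) and Ptpn11 (0.86). Chac1, also a stress response gene, had a negative difference (-1.96). Among redox, xenobiotic and carbonyl reductase genes, positive differences were those of Cbr1 (0.97), Cbr3 (2.00), Cyp2a5 (1.99), Gsr (0.61), Nqo1 (0.62), Por (0.90) and Srxn1 (0.85). Gstt1, a glutathione transferase, had -0.82. Of the glutathione transferases and NRF2 targets, 4 passed higher and 2 lower without WE14. Other listed genes higher in DIO were C6 (0.81), Cps1 (0.99), Lamc1 (0.73), Mki67 (1.32), Pfkfb3 (1.96) and Tfrc (2.01). Genes named for their size, p or opposite signs and higher in DIO were Cers6 (1.06), Dhx9 (1.32), Eaf1 (1.10), Gcnt2 (1.15), Ihh (2.81), Kif26b (2.83), Nup62cl (2.74), Pik3r1 (1.54), Ppat (1.14), Rapgef4 (1.57), Serpinb6a (1.15), Snai3 (3.44), Sorbs2 (1.20), Tgfbr2 (0.86), Tsku (2.85) and Tubb2b (4.48). The adipocyte marker Cfd had -10.91. Lower lipid storage and oxidation genes comprised Cidec (-2.57), Fitm1 (-2.04), G0s2 (-1.15), Lipe (-0.82), Mogat1 (-2.45), Pparg (-0.91) and Vnn1 (-1.01). Lower sex-biased, sterol and bile acid genes comprised Cyp2c69 (-2.51), Cyp8b1 (-1.41), Ebp (-0.94), Hao2 (-3.13), Mup3 (-1.96) and Susd4 (-2.11). Lower endothelial and blood cell genes comprised Alas2 (-1.44), Cd79b (-2.31), Cebpe (-1.77), Elane (-5.66), Eng (-0.79), Fcgr2b (-0.74), Ms4a1 (-3.65) and Oit3 (-0.97). Of the erythroid markers, Alas2 was thus lower, whereas Tfrc, named above, was higher (2.01). Further genes lower in DIO were Aldh3b3 (-2.84), BC024386 (-1.33), Clstn3 (-2.81), Col5a3 (-2.40), Frat1 (-1.28), Gckr (-0.66), Grik5 (-1.56), H19 (-4.10), Lama4 (-1.35), Mab21l3 (-5.00), Mapk15 (-2.19), Phlda1 (-1.12), Plekhf1 (-1.90), Rhbg (-1.05) and Tjp3 (-0.91). The values of Cfd and Mab21l3 rest on groups at or near 0 reads and depend on the prior count. Other genes here also rest on few reads. In the ob/ob vehicle libraries Elane had 4, 1 and 0 reads, Ms4a1 6, 1 and 1, and Aldh3b3 5, 4 and 1. In the ob/ob E2 libraries Tubb2b had 3, 3 and 10 reads, Kif26b 6, 2 and 2, and Nup62cl 9, 6 and 3. In the DIO vehicle libraries Snai3 had 10, 7 and 3 reads and Ihh 18, 8 and 6. Groups held 3 libraries, so no test for a single outlying library within a group was made.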

How the results depend on the processing

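With 12 libraries, 1 gene was higher and 7 were lower in DIO. The counts were 10 and 11 with DESeq2 size factors, 226 and 173 with the DESeq2 Wald test, 93 and 75 with no filter on low counts, 9 and 18 with at least 10 counts in every library, 25 and 19 with the length trend removed, and 229 and 513 at a difference above 1 with an unadjusted p under 0.05. The higher count was 5 with TMM within each model, and the lower count was 1 with the PaPE-1 libraries in the fit. Limma voom gave 1 and 7. Genes called for E2 in DIO liver numbered 49 by DESeq2, 13 with no filter, 1 with at least 10 counts and 198 at the fold and unadjusted p, and those in ob/ob liver 915 at the latter. Leaving out each library gave 0 to 564 higher and 1 to 459 lower genes, 0 to 303 for E2 in DIO liver and 552 to 3292 in ob/ob liver. Without WE14, the 564 higher genes became 849 by the DESeq2 Wald test and 996 with no filter. The 459 lower genes became 859 with no filter, 298 with the PaPE-1 libraries and 732 at the fold and unadjusted p. Leaving out a further library gave 180 to 1076 higher and 147 to 745 lower genes. Where WE3 or WE18 was that library, the other stood alone in its group and was assumed to vary like the other groups. These fits gave 215 higher and 180 lower genes without WE3, and 755 and 555 without WE18. The cause of these shifts was not tested. No single named gene changed the sign of a called difference. No paired analysis was possible because the libraries carry no replicate numbers shared between groups. Depth limits genes with few reads, above all in L8.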
